A study of Mus musculus with 9 samples.

Results

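The genes followed here are 32 mouse genes known from neutrophils and their granules, out of 43644 genes in the deposited table, measured in 9 RNA libraries from the coronal suture, where the frontal bone of the skull meets the parietal bones. The genes were taken by symbol and sorted into 4 classes by the known stage and role of their products. There were 6 early genes, 4 of which encode azurophil granule proteins. There were 11 late genes, of later granules and secreted products and with the factor Cebpe, 9 surface receptors, and 6 genes of cytosolic or nuclear products. All 32 were in the table and all 32 passed the filter on low values that left 29107 genes for testing.

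All libraries came from C57BL/6 mice aged 7 months, and each group had 3 libraries. The WT group was wild type and had no treatment. The MUT group carried Twist1+/-, the loss of 1 copy of a transcription factor gene whose mutation causes early fusion of this suture, and had no surgery. The REG group carried Twist1+/- as well and had suture regeneration surgery at 1 month. The series' design text also speaks of an induction, which the labels do not explain. The labels do not say whether the 3 libraries of a group came from 3 animals, so the p-values below measure the spread between these libraries, which may be technical. Sequencing is described as done for 3 pairs of samples, without saying which. The library name of MUT replicate 2 does not show its group, which was taken from its sample label, and REG replicate 3 is named in another numbering than REG replicates 1 and 2. No sham-operated group is analysed here, and genotype and surgery together separate REG from WT.

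Neutrophils are short-lived white cells that mature in bone marrow, and skull bone holds marrow close to the sutures. Their granules are made in sequence. Azurophil granules with serine proteases and myeloperoxidase are made first, in promyelocytes, and secondary and tertiary granules with lactoferrin, cathelicidin and lipocalin follow. Receptors for chemokines, formyl peptides and leukotrienes appear late, while the calcium-binding S100 proteins fill the cytosol of the mature cell. The transcription factors PU.1 and C/EBP family members are known to drive these genes. In bulk tissue, fewer neutrophils and less RNA per neutrophil cannot be told apart.

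Values are the authors' scaled read counts, called scaled units here, in which the third quartile of all genes is about equal in every library. Estimated gene reads spanned 16356391 to 20019712 in WT, 2945636 to 10894209 in MUT and 18276494 to 39377876 in REG. Twist1 stood at 16.2, 23.3 and 23.1 scaled units in WT, at 0.987, 8.08 and 0.548 in MUT and at 3.76, 9.19 and 12.2 in REG (replicates 1 to 3). The MUT libraries stood apart in quality measures. Background, estimated from 1597 olfactory and vomeronasal receptor genes, took 22.5%, 7.21% and 20.5% of the reads of MUT replicates 1 to 3, against 0.493% to 0.857% in the other 6 libraries. Mitochondrial reads made up 2.01% to 4.78% in MUT and 9.70% to 15.5% elsewhere. The summed level of 12 suture and bone markers spanned 54844 to 85827 reads per 1000000 reads (RPM) in WT, 8216 to 48851 in MUT and 34670 to 75894 in REG. In WT and REG each member had at least 2 times the estimated background reads, save Trem1 in WT replicate 3 and Olfm4 in REG replicate 2. In MUT, reads were under that limit for Cebpe, Fpr2, Trem1 and Serpinb1a in replicate 2, for Fpr2 in replicate 3 and for Padi4 in replicate 1.

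Summed over the 32 genes, the level was 3181, 1916 and 762 RPM in WT replicates 1 to 3, then 3389, 5339 and 3258 RPM in MUT, and 10191, 12511 and 3984 RPM in REG. REG was the highest group in mean, at 8895 ± 4409 RPM (SD, n = 3), against 3995 ± 1165 in MUT and 1953 ± 1210 in WT. The lowest REG library lay below the highest MUT library, and the lowest MUT library lay just above the highest WT library. RPM scales each library by its total reads. On that scale the median log2 change in MUT against WT was 0.86 for the members and 1.11 for all genes. Most of the sum in REG replicates 1 and 2 was S100a8 and S100a9, which together gave 6683 and 8475 RPM there and 979 RPM in REG replicate 3. Per exon length, S100a9 was the most abundant member in all 3 groups, at a mean of 598 reads per kb of exon per 1000000 reads (RPKM) in WT, 2278 in MUT and 7264 in REG. In WT it was followed by Ngp at 278 and S100a8 at 196 RPKM, and in REG by S100a8 at 2287 and Camp at 910 RPKM. The surface receptors had the lowest summed level of the 4 classes in every library, and their mean levels in WT ran from 0.486 RPKM for Trem1 to 15.7 RPKM for Cd177.

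**Figure D1:**
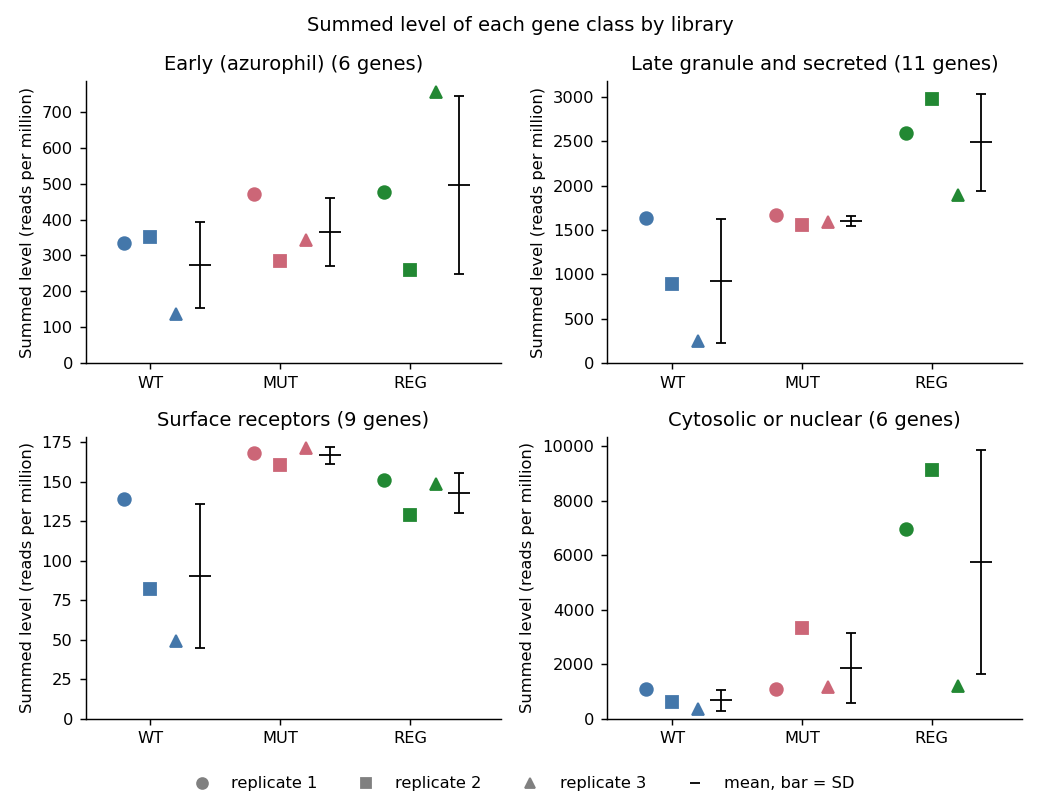
Summed level of each gene class in reads per 1000000 reads (y axis, from 0) for the 3 libraries of WT, MUT and REG (x axis); circles, squares and triangles are replicates 1, 2 and 3, and the bar is the mean with its SD. The cytosolic or nuclear class reached 6969 and 9145 RPM in REG replicates 1 and 2 but 1186 in REG replicate 3, and WT replicate 3 was the lowest point of every panel.

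The comparison of REG with MUT asks how gene expression differs between operated and unoperated Twist1+/- sutures. A limma fit over all 9 libraries and all 29107 genes, with Benjamini-Hochberg adjusted p under 0.05 as the call, gave 8 of 32 members called, and all 8 were higher in REG. Of all genes tested 36.6% were called, 11.8% higher and 24.8% lower. The 8 were Elane and Prtn3 of the early class, Fcnb and Hp of the late class, the receptor Mcemp1, and Serpinb1a, Anxa1 and Hdc of the cytosolic or nuclear class. The median log2 change of the 32 members was 1.18, and 28 of the 32 were above 0, while the median of all genes tested was −0.36. Scaling moved this result. The median of the members was 0.39 under total-read scaling, 0.66 under quantile scaling and 0.30 once background was subtracted, with 21, 25 and 18 members above 0, and these scalings called 2, 2 and 0 members. In the total-read fit 1 of the 2 called members, Olfm4, was lower in REG. For REG against MUT, the share of all genes called by limma is given here and below only for the fit described first. The counts of the alternative fits are therefore not set against a share. A change in those counts is not read as a result about the members.

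Single libraries moved the count as well. Without MUT replicate 3 only Fcnb was called, and without MUT replicate 1 the calls were Elane, Fcnb, Mcemp1 and Serpinb1a. Without REG replicate 1 they were Elane, Fcnb, Mcemp1 and Anxa1. Without REG replicate 3 there were 8 calls, among which Camp, Retnlg, S100a8 and S100a9 stood in place of Elane, Prtn3, Hp and Serpinb1a. Without MUT replicate 2, the library of lowest depth, Prtn3, Camp, Fcnb, S100a8, S100a9 and Anxa1 were called. With REG replicate 3 as the single library of its group, the calls were Elane, Mpo, Ctsg and Fcnb. With MUT replicate 2 as the single library of its group, they were Fcnb and Serpinb1a. In both of these fits the lone library is assumed to vary like those of the other groups. Fcnb was the one member called in each of these 7 fits.

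The comparison of MUT with WT asks what the loss of 1 Twist1 copy changes in the suture. With the same fit, 1 of 32 members was called. This was Hdc, which was lower in MUT and was not called without WT replicate 1, WT replicate 3 or MUT replicate 3. Of all genes tested 35.1% were called, 20.5% higher and 14.6% lower. The median log2 change of the members was −0.27, and 12 were above 0, against a median of 0.18 for all genes. No direction can be given for the members as a group here. Their median was 0.86 with total-read scaling, where the median of all genes rose to 1.11, and 0.20 under quantile scaling and 0.80 once background was subtracted, with 30, 20 and 29 members above 0. Ms4a3, Chil3 and Csf3r were called higher with total-read scaling, and no member was called with quantile scaling or after background subtraction. The shares of all genes called in those 3 fits were 41.5%, 17.8% and 17.5%.

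The comparison of REG with WT sets the operated mutant suture against the wild type. limma called 0 of 32 members and 0 of 29107 genes (0%) in either direction, and the smallest adjusted p of any gene was 0.350. At an unadjusted p under 0.05 there were 7 of 32 members and 2755 genes (9.47%). The members' median log2 change was 0.76, and 28 of 32 were above 0 under each of the 4 scalings compared, with medians from 0.76 to 1.12. Without WT replicate 3, the library lowest for most members, the median was 0.28 and 21 members were above 0. Without REG replicate 3 limma called 3 members higher, namely Camp, S100a8 and S100a9, and 5.61% of all genes. The 3 comparisons share groups: the MUT libraries enter the first and the second, so these comparisons are not independent of each other.

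**Figure D2:**
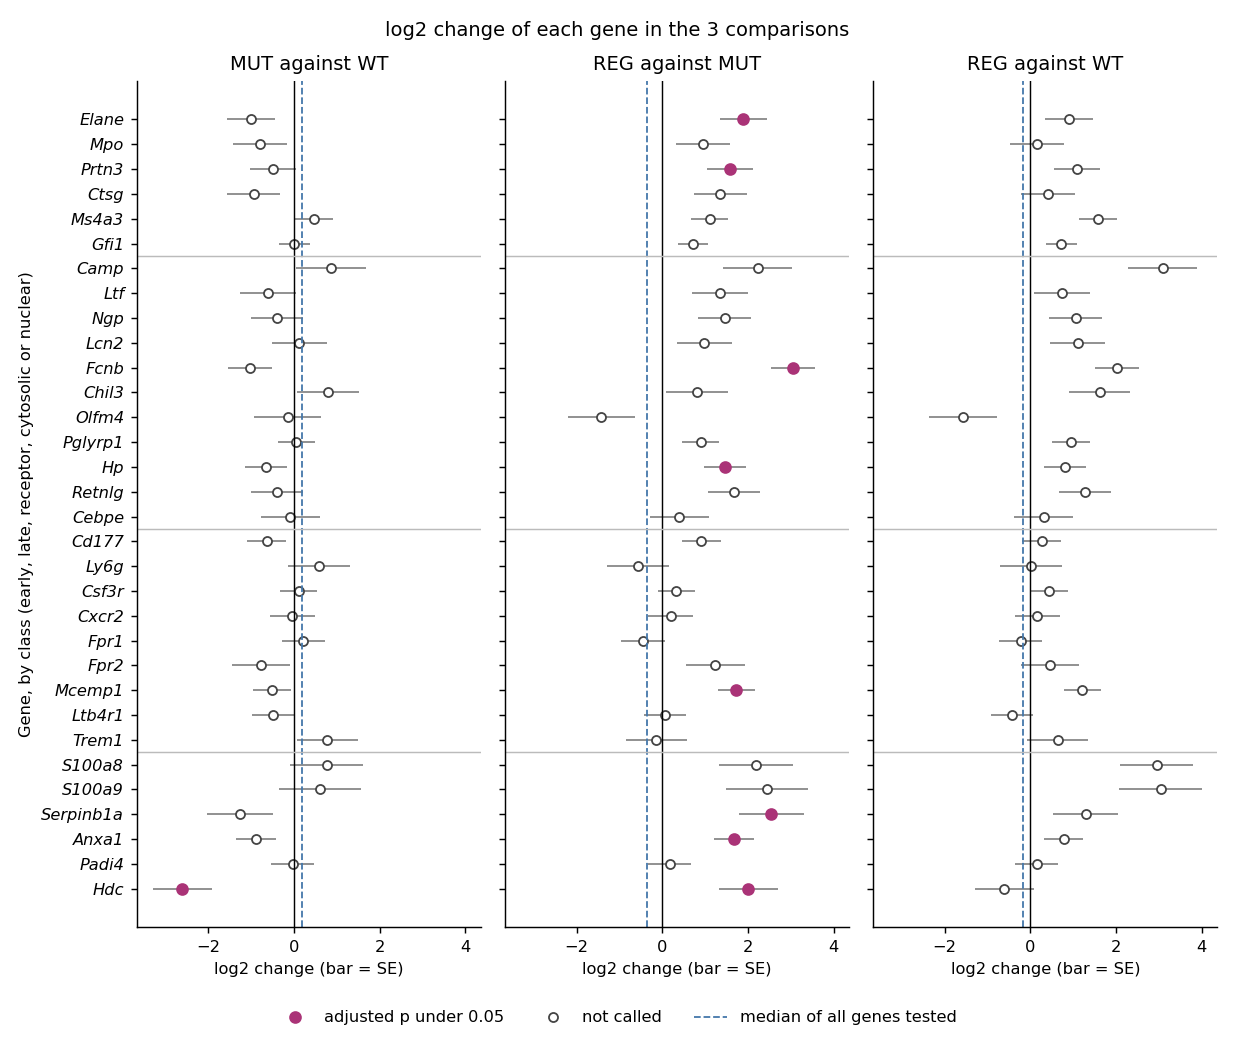
log2 change with its SE (x axis) of each of the 32 genes (y axis, ordered by class) for MUT against WT, REG against MUT and REG against WT; filled points have an adjusted p under 0.05 and the dashed line is the median of all genes tested. There are 8 filled points to the right in REG against MUT, 1 to the left in MUT against WT and 0 in REG against WT.

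**Figure D3:**
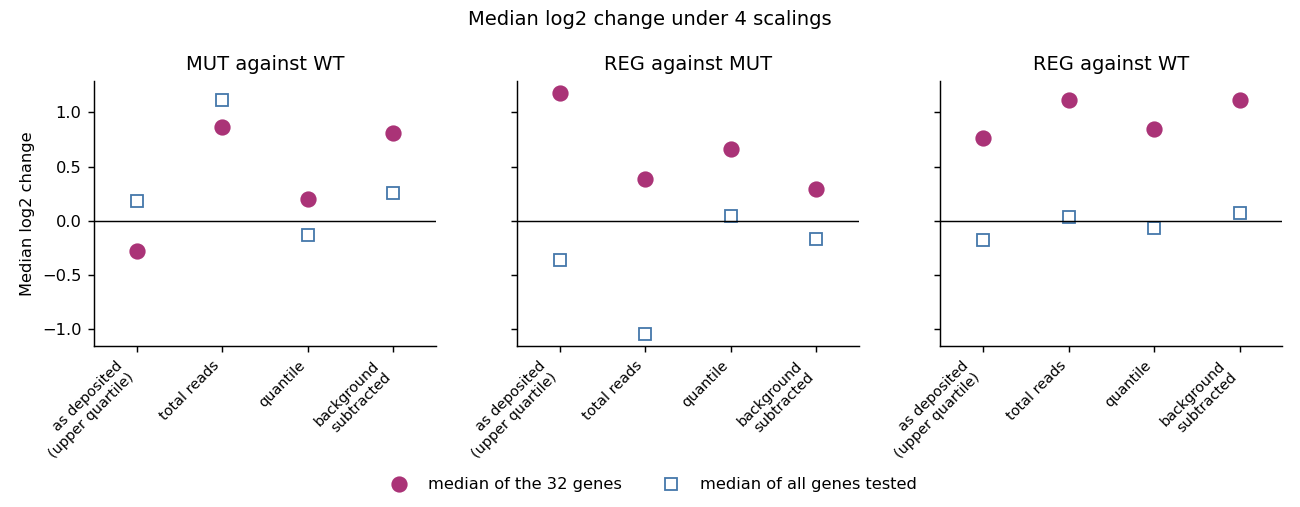
Median log2 change (y axis) of the 32 genes (circles) and of all genes tested (squares) under 4 scalings (x axis) in each comparison. The median of the 32 genes crosses 0 in MUT against WT, from −0.27 as deposited to 0.86 with total reads, and stays above 0 in the other comparisons.

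The early class holds neutrophil serine proteases, myeloperoxidase, the membrane protein Ms4a3 and the repressor Gfi1. Elane and Prtn3, which encode neutrophil elastase and proteinase 3, are neighbours on chromosome 10 (GRCm38, plus strand). Prtn3 lies at chr10:79874476-79883175 and Elane at chr10:79886247-79888216, with 3071 bases and 0 protein-coding genes between them. Their promoters are shown because both genes were called in the same direction and lie side by side. The sequences are from RefSeq (GRCm38.p6), run from 250 bases before to 50 bases after the RefSeq start, and are written 5′ to 3′ on the plus strand, chr10:79886062-79886361 for Elane and chr10:79879417-79879716 for Prtn3. The Prtn3 window lies inside the gene interval given above, so the RefSeq start used differs from the start of that interval. Capitals mark GAGGAA, a match to the core that PU.1 is known to bind.

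Elane: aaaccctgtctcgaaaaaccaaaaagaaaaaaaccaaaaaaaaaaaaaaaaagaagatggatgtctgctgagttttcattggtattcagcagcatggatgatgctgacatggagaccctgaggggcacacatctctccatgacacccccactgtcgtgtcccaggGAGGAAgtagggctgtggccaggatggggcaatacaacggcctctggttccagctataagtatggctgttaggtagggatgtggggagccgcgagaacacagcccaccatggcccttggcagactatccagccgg

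Prtn3: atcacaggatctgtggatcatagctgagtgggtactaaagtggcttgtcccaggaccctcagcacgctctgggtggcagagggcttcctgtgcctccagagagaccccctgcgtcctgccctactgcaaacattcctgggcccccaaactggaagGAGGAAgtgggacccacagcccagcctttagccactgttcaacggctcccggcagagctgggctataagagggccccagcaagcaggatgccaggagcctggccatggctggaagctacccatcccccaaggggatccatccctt

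The match began 85 bases before the start in Elane and 95 bases before it in Prtn3. Promoters of this length were found in RefSeq for 29 of the 32 members. GAGGAA on either strand was in 18 of these 29, and in 28.3% of all 27025 promoters in that table. By class it was in 5 of 6 early genes, 4 of 9 late genes, 7 of 9 receptors and 2 of 5 cytosolic or nuclear genes. A match is only a run of letters in this window and was not tested as a binding site. No promoter was found for Cebpe, Hp or Serpinb1a.

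Elane stood at 16.5, 20.7 and 8.32 scaled units in WT, at 11.6, 7.49 and 3.76 in MUT and at 22.3, 16.7 and 51.4 in REG. Every REG library was above every MUT library, and REG replicate 3 was the highest of all 9. Its log2 change was 1.90 ± 0.56 (SE, adjusted p = 0.0250, limma) in REG against MUT. Elane was called in 13 of 21 alternatives, and among others not under the other 3 scalings (0.86 at the lowest) or without MUT replicate 2, MUT replicate 3 or REG replicate 3. Prtn3 stood at 11.96, 13.99 and 5.35 in WT, at 6.95, 12.5 and 3.505 in MUT and at 27.4, 13.3 and 25.2 in REG. The groups did not overlap between REG and MUT, by a narrow margin between REG replicate 2 and MUT replicate 2, and the log2 change was 1.58 ± 0.54 (adjusted p = 0.0439, limma). It was called in 4 of 21 alternatives, with changes down to 0.60. Prtn3 shares exonic bases with Plppr3 on the opposite strand, and the sources used here do not state whether reads were counted by strand.

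Mpo, which encodes myeloperoxidase, had the highest mean level of the early genes per exon length, at 58.1 RPKM in WT, 73.9 in MUT and 89.7 in REG. It stood at 113, 138 and 44.3 scaled units in WT, at 56.8, 55.0 and 41.8 in MUT and at 98.6, 41.4 and 236 in REG. REG replicate 2 was the lowest of the 9 libraries and REG replicate 3 the highest, so the groups overlapped, and the log2 change was 0.96 ± 0.63 (adjusted p = 0.262, limma) in REG against MUT. Ctsg, the gene of cathepsin G, stood at 15.9, 2.65 and 14.2 scaled units in REG replicates 1 to 3, and the lowest of the 9 libraries was MUT replicate 3, at 2.32. Ms4a3, a membrane protein of granulocyte precursors, was even across MUT, at 2.87, 2.79 and 2.92, and was 5.20, 11.3 and 4.87 in REG against 2.45, 2.82 and 1.06 in WT. Both comparisons with REG were free of overlap, but neither was called. Gfi1, a repressor needed for neutrophil differentiation, spanned 1.67 to 2.72 in WT, 1.90 to 2.64 in MUT and 2.81 to 5.23 in REG. In REG against MUT 2 of the 6 early genes were called and all 6 changes were above 0, with a median of 1.23.

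In MUT against WT no early gene was called. The smallest p was that of Elane, with a log2 change of −1.0 ± 0.56 (adjusted p = 0.188, limma), and the class reached 0.47 at most. Against WT the REG libraries gave changes from 0.16 to 1.58 in this class. The smallest p was that of Ms4a3, at 1.58 ± 0.44 (adjusted p = 0.498, limma).

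The late class holds the contents of secondary and tertiary granules, secreted proteins and Cebpe, the factor needed for late granule genes. Fcnb, which encodes ficolin B, a lectin that binds microbial sugars, had the largest increase of all members in REG against MUT. Ngp encodes neutrophilic granule protein and was the most abundant late gene per exon length in WT and MUT. The promoters of both are shown because each holds 2 matches to TTGCNNAA, a form of the sequence that C/EBP factors are known to bind, on either strand. They are from RefSeq (GRCm38.p6) over the same window, 5′ to 3′ on the strand of the gene. That of Fcnb is chr2:28084829-28085128 on the minus strand and that of Ngp is chr9:110419558-110419857 on the plus strand. Capitals mark the matches.

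Fcnb: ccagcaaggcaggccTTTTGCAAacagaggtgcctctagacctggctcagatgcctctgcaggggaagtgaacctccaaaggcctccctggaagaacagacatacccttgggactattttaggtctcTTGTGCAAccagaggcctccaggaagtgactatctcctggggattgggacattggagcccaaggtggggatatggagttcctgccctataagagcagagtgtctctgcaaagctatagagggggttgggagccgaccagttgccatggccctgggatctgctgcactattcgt

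Ngp: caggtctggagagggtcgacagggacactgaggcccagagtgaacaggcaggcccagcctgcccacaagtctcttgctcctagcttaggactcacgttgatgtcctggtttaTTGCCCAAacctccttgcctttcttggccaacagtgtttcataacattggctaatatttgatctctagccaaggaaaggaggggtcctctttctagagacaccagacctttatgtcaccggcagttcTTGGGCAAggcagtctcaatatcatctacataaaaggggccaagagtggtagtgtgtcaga

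In Fcnb the matches read TTTTGCAA at 235 and TTGTGCAA at 123 bases before the start. In Ngp they read TTGCCCAA at 138 and TTGGGCAA at 11 bases before it. Ltf has 1 such match, TTGGGCAA, 75 bases before its start. TTGCNNAA on either strand was in 10 of 29 member promoters and in 10.8% of all 27025. By class it was in 5 of 9 late genes, 2 of 6 early genes, 1 of 9 receptors and 2 of 5 cytosolic or nuclear genes.

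Fcnb stood at 7.46, 5.90 and 2.46 scaled units in WT, at 2.90, 0.898 and 3.57 in MUT and at 22.2, 20.3 and 19.6 in REG. The 3 REG libraries lay close together and far above all others. The log2 change in REG against MUT was 3.06 ± 0.52 (adjusted p = 0.00312, limma). Fcnb was called in 20 of 21 alternative fits and missed the threshold after background subtraction (adjusted p = 0.0679, limma). The MUT values rest on 177, 8 and 169 estimated reads, with an estimated background of 27.4, 2.56 and 18.1 reads. In REG against WT the log2 change was 2.03 ± 0.52 (adjusted p = 0.498, limma), also with no overlap.

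Hp, which encodes haptoglobin, a binder of free haemoglobin stored in neutrophil granules and made by liver, stood at 24.1, 18.9 and 7.08 scaled units in WT, at 10.8, 6.79 and 10.8 in MUT and at 31.9, 17.6 and 32.6 in REG. All REG libraries were above all MUT libraries, and the log2 change was 1.47 ± 0.49 (adjusted p = 0.0409, limma). It was called in 6 of the 21 alternatives. Pglyrp1, a peptidoglycan recognition protein, spanned 3.39 to 4.52 in MUT and 6.97 to 9.14 in REG without overlap and was not called.

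Ltf, Ngp and Lcn2 encode lactoferrin, neutrophilic granule protein and lipocalin 2, an iron-siderophore binder. Ngp stood at 284, 168 and 40.8 scaled units in WT, at 103, 109 and 76.8 in MUT and at 246, 232 and 311 in REG. Ltf stood at 192, 117 and 26.7 in WT, at 46.5, 59.7 and 60.7 in MUT and at 93.6, 138 and 219 in REG. Both were free of overlap between REG and MUT, with log2 changes of 1.45 and 1.35, and neither was called, at adjusted p = 0.0887 and 0.131 (limma). Ngp was called when WT replicate 3 was left out and when only the 2 groups were fitted, its only calls in 21 alternatives. The WT libraries of both genes spanned more than the other groups: from WT replicate 1 to WT replicate 3 the fall was 2.79 for Ngp and 2.83 for Ltf on the log2 scale. Lcn2 stood at 99.2, 59.6 and 15.3 in WT, at 36.4, 87.2 and 37.2 in MUT and at 116, 95.4 and 82.7 in REG, where REG replicate 3 was below MUT replicate 2.

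Camp, the gene of the cathelicidin antimicrobial peptide, followed another pattern. It stood at 61.4, 27.9 and 7.89 scaled units in WT, at 33.7, 90.2 and 27.5 in MUT and at 284, 377 and 82.1 in REG. REG replicates 1 and 2 were far above the rest, and REG replicate 3 was below MUT replicate 2. The log2 change in REG against MUT was 2.23 ± 0.81 (adjusted p = 0.0547, limma) and that in REG against WT was 3.09 ± 0.81 (adjusted p = 0.498, limma). Without REG replicate 3 Camp was called in both, at 2.89 and 3.75. In all, Camp was called in 6 of 21 alternatives in REG against MUT, with changes down to 0.90. In REG against WT it was called in 1 of 21. Retnlg, a resistin-like secreted protein, was likewise highest in REG replicates 1 and 2, at 43.6 and 26.4, with 8.79 in REG replicate 3, within the WT range of 5.25 to 13.6.

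Chil3, a chitinase-like protein also made by macrophages, spanned 7.78 to 58.7 in WT, 30.3 to 91.0 in MUT and 72.9 to 106 in REG. Of its 31-base words 41.5% also occur in other genes, Chil4 among them, so its reads could be shared. Olfm4, which marks a subset of neutrophils, was the one late gene below 0 in both comparisons with REG. It stood at 6.77, 4.35 and 0.532 in WT, at 2.47, 1.77 and 3.28 in MUT and at 0.987, 0.0553 and 1.63 in REG. All REG libraries were below all MUT libraries, and the log2 change was −1.42 ± 0.78 (adjusted p = 0.182, limma). Cebpe was scarce, from 0.299 to 3.91 scaled units, and rested on 2 estimated reads in MUT replicate 2. Its log2 changes were −0.09 in MUT against WT and 0.40 in REG against MUT.

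In REG against MUT 2 of 11 late genes were called and 10 of 11 changes were above 0, with a median of 1.35. In MUT against WT none was called and the median was −0.15. The smallest p there was that of Fcnb, at −1.03 ± 0.52 (adjusted p = 0.146, limma). In REG against WT none was called, and 10 of 11 changes were above 0, with a median of 1.06.

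The receptors gave 1 of 9 called in REG against MUT. This was Mcemp1, a membrane protein of mast cells and other myeloid cells. It stood at 3.78, 2.38 and 1.44 scaled units in WT, at 2.42, 0.898 and 1.63 in MUT and at 6.64, 7.38 and 4.39 in REG. Each REG library was above each of the other 6. Its log2 change was 1.73 ± 0.44 in REG against MUT (adjusted p = 0.0137, limma) and 1.22 ± 0.44 in REG against WT (adjusted p = 0.508, limma). It was called in 15 of 21 alternatives, and its MUT replicate 2 value rests on 8 estimated reads.

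Csf3r is the receptor of granulocyte colony-stimulating factor. It stood at 12.1, 7.82 and 6.39 scaled units in WT, at 6.75, 15.7 and 7.25 in MUT and at 8.49, 11.98 and 15.4 in REG, and the groups overlapped in every comparison. Cxcr2, the receptor of the chemokines that draw neutrophils out of marrow, stood at 7.61, 4.08 and 1.99 in WT, at 3.62, 7.09 and 2.24 in MUT and at 3.43, 4.97 and 5.42 in REG. Its log2 change was 0.20 in REG against MUT. Cd177, a surface protein that holds proteinase 3, was the most abundant receptor, at 31.1, 22.6 and 11.2 in WT, at 9.83, 18.5 and 11.1 in MUT and at 24.4, 17.7 and 32.1 in REG. It had the smallest p of the class in MUT against WT, at −0.64 ± 0.46 (adjusted p = 0.296, limma), a change that was above 0 under each of the other 3 scalings.

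Ly6g, the usual antibody target for mouse neutrophils, was scarce and uneven. It stood at 2.23, 1.38 and 0.301 in WT, at 1.12, 2.97 and 1.67 in MUT and at 2.63, 0.123 and 1.76 in REG. REG replicate 2 had 10 estimated reads of Ly6g beside 181377 of S100a9. Fpr1 and Fpr2, receptors of formyl peptides, are neighbours on chromosome 17 with 3882 bases between them, and both were low in REG replicate 2, at 0.146 and 0.773, against 1.62 and 4.52 in REG replicate 1. For Fpr2, 43.0% of 31-base words also occur in other genes, so its reads could be shared. Ltb4r1, a leukotriene B4 receptor, and Trem1, an amplifier of the inflammatory response, repeated the low value in REG replicate 2, at 0.369 and 0.261, with 1.16 and 2.74 in REG replicate 1 and 2.41 and 1.56 in REG replicate 3. REG replicate 2 was the lowest REG library for 46.9% of the members and 43.3% of all genes tested. Mcemp1 was highest there instead, at 7.38, and Csf3r and Cxcr2 were lowest in REG replicate 1. In REG against MUT the median of the 9 receptors was 0.20, and 6 of 9 changes were above 0. In MUT against WT and in REG against WT no receptor was called.

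S100a8 and S100a9 encode the 2 chains of calprotectin, the main cytosolic protein of the mature neutrophil. They lie on chromosome 3, S100a8 at chr3:90668978-90670036 on the plus strand and S100a9 at chr3:90692632-90695722 on the minus strand (GRCm38). S100a8 stood at 106, 71.1 and 21.4 scaled units in WT, at 60.9, 214 and 61.0 in MUT and at 734, 842 and 123 in REG. S100a9 stood at 249, 153 and 50.9 in WT, at 100, 714 and 94.5 in MUT and at 1718, 2031 and 313 in REG. REG replicates 1 and 2 were far above all other libraries for both genes, while REG replicate 3 was above WT but below MUT replicate 2. The log2 changes in REG against WT were 2.95 ± 0.86 (adjusted p = 0.498, limma) for S100a8 and 3.04 ± 0.96 (adjusted p = 0.499, limma) for S100a9. Neither was called in REG against MUT, at 2.19 and 2.44. Without REG replicate 3 both were called in both comparisons. Without MUT replicate 2 both were called in REG against MUT, at 2.79 for S100a8 and 3.40 for S100a9. In all, each was called in 3 of 21 alternatives in REG against MUT, with changes down to 0.41 and 0.53. In REG against WT each was called in 1 of 21.

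Serpinb1a encodes an inhibitor of neutrophil elastase, cathepsin G and proteinase 3. It stood at 12.5, 6.88 and 1.63 scaled units in WT, at 5.61, 0.567 and 2.06 in MUT and at 15.2, 10.3 and 16.0 in REG. All REG libraries were above all MUT libraries, with a log2 change of 2.55 ± 0.77 (adjusted p = 0.0267, limma). The MUT replicate 2 value rests on 5 estimated reads, at the estimated background of 4.40, and Serpinb1a was called in 13 of 21 alternatives, and among others not under the other 3 scalings or without any 1 of MUT replicates 2 and 3 and REG replicates 1 and 3. Anxa1, which encodes annexin A1, a protein that limits neutrophil entry and is also made by many other cells, stood at 43.5, 59.2 and 40.8 in WT, at 15.5, 41.7 and 24.7 in MUT and at 66.0, 134 and 60.4 in REG. All 3 REG libraries were above the other 6, and the log2 change in REG against MUT was 1.67 ± 0.46 (adjusted p = 0.0191, limma). Anxa1 was called in 13 of 21 alternatives, and among others not under the other 3 scalings (0.59 at the lowest) or without MUT replicate 1 or 3. Padi4, the enzyme that citrullinates histones during the release of extracellular traps, spanned 1.75 to 6.57 in WT, 2.82 to 4.19 in MUT and 2.05 to 5.13 in REG and was not called in any comparison.

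Hdc encodes histidine decarboxylase, which makes histamine, and is known from mast cells and basophils as well as from immature neutrophils. It stood at 76.2, 20.03 and 43.8 scaled units in WT, at 7.21, 6.45 and 5.42 in MUT and at 21.6, 77.6 and 10.97 in REG. The MUT libraries were the lowest of the 9 and lay close together. The log2 change was −2.62 ± 0.69 (adjusted p = 0.0173, limma) in MUT against WT and 2.01 ± 0.69 (adjusted p = 0.0444, limma) in REG against MUT. The first was called in 14 and the second in 5 of 21 alternatives, and neither was called under the other 3 scalings. The first was −1.41 under total-read scaling, −1.78 under quantile scaling and −1.61 once background was subtracted. The summed level of 14 eosinophil, basophil and mast cell markers spanned 33.3 to 143 RPM in WT, 173 to 429 RPM in MUT and 161 to 456 RPM in REG, and none of the 14 was at 0 reads in every library. Their part in the Hdc values was not tested. In REG against MUT 3 of the 6 genes of this class were called, with a median of 2.10.

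**Figure D4:**
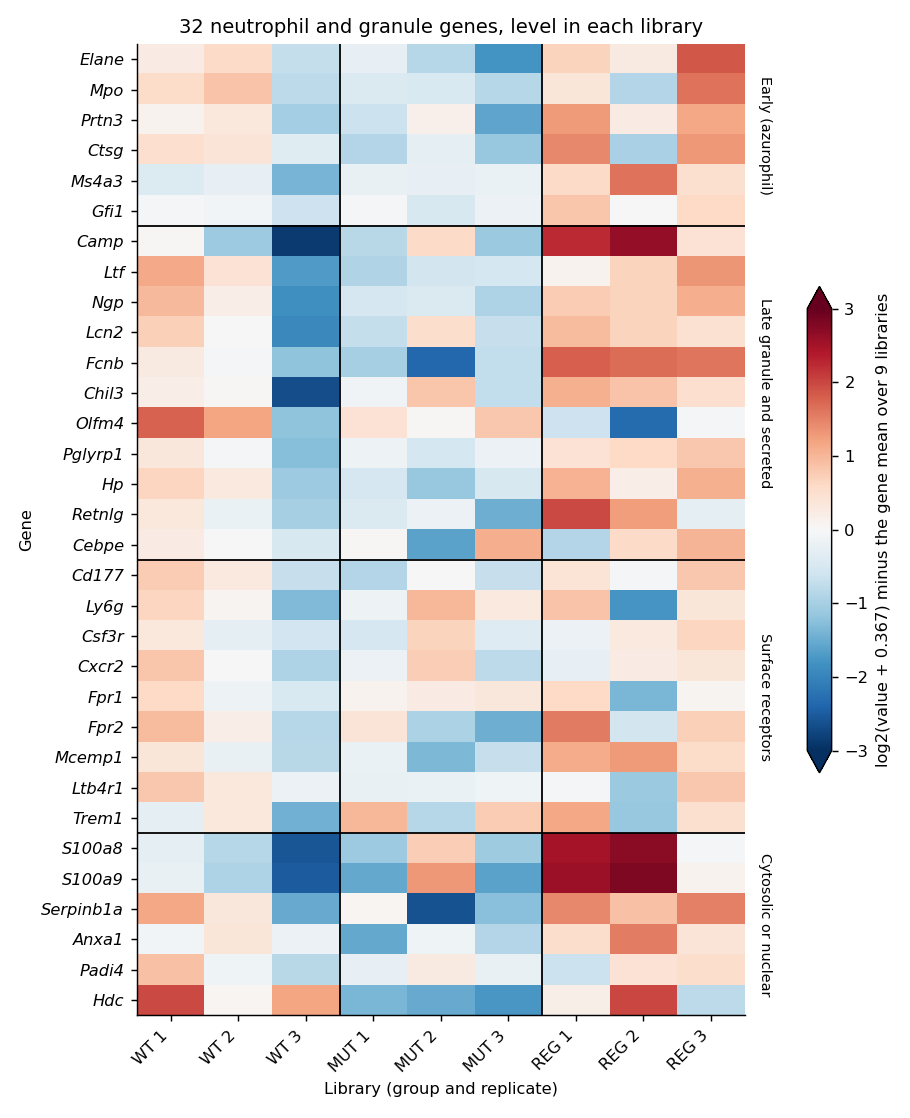
Level of each of the 32 genes (rows, by class) in each of the 9 libraries (columns), as log2(value + 0.367) minus the mean of that gene over the 9 libraries; red is above and blue below the mean, and colours are capped at the ends of the scale. WT replicate 3 is the palest red or deepest blue of the WT columns for 31 of 32 genes, and S100a8, S100a9 and Camp are deepest red in REG replicates 1 and 2.

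The WT libraries differed from each other in these genes in 1 order. WT replicate 3 was the lowest WT library for 31 of 32 members and WT replicate 1 the highest for 26, whereas over all 29107 genes the shares were 30.9% and 34.9%. Hdc, lowest in WT replicate 2, was the exception to the first. The median SD of the members within WT was 0.86 on the log2 scale, against 0.29 for all genes. In MUT it was 0.62 against 0.50, and in REG it was 0.65 against 0.69. The fall from WT replicate 1 to replicate 3 was deepest for Olfm4, Camp, Chil3, Ltf, Ngp, Serpinb1a and Lcn2, from 2.67 to 2.99 on the log2 scale, and was 0.96 for Elane and 0.09 for Anxa1. Estimated reads of WT replicates 1 and 3 were similar, at 16356391 and 19886755. The erythroid marker sum did not have this order, with 1778, 589 and 1244 RPM in WT replicates 1 to 3. Nor did that of 12 B cell markers, with 193, 70.8 and 89.8 RPM, nor the macrophage or the T and NK cell sum. The sum of 14 eosinophil, basophil and mast cell markers did have it, with 143, 54.9 and 33.3 RPM. So did that of 50 other genes of neutrophil biology, with 2080, 1826 and 1368 RPM.

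Within each library, ratios of reads between members do not depend on a scaling by 1 factor per library. Quantile scaling and background subtraction can change them, and the ratios here were taken without either. The early to late ratio, taken as the reads of Elane, Mpo, Prtn3 and Ctsg over those of Ltf, Ngp and Lcn2, stood at 0.259, 0.521 and 0.751 in WT, at 0.421, 0.310 and 0.294 in MUT and at 0.360, 0.159 and 0.533 in REG. Its means were 0.510 ± 0.246, 0.342 ± 0.0692 and 0.351 ± 0.187 (SD, n = 3), and the groups overlapped. The ratio of S100a8 and S100a9 to Ltf, Ngp and Lcn2 fell into separate ranges instead. It stood at 0.616, 0.649 and 0.875 in WT, at 0.870, 3.64 and 0.891 in MUT and at 5.38, 6.18 and 0.711 in REG. So 6 libraries from all 3 groups lay between 0.616 and 0.891, while MUT replicate 2 and REG replicates 1 and 2 lay at 3.64 or more. The ratio of Camp to Ngp had the same 3 libraries highest, at 0.830, 1.15 and 1.63, with the other 6 between 0.166 and 0.358. The ratio of S100a9 to S100a8 was steady in WT and REG, from 2.15 to 2.54.

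**Figure D5:**
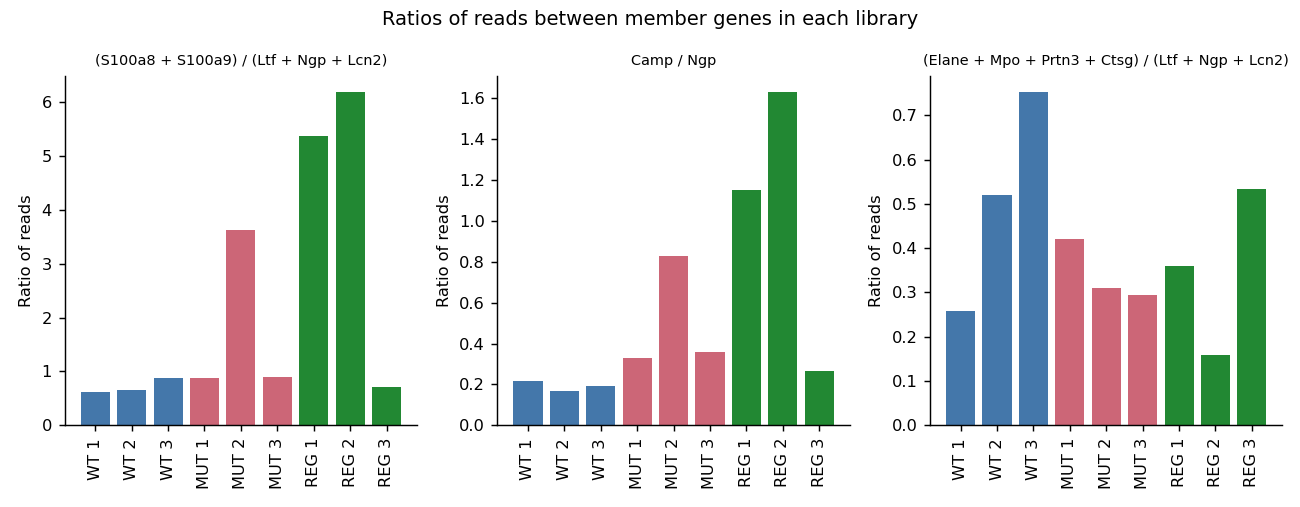
Ratios of estimated reads between member genes (y axis, from 0) in each of the 9 libraries (x axis; blue WT, red MUT, green REG): calprotectin genes over 3 late granule genes, Camp over Ngp, and 4 azurophil genes over the same 3 late granule genes. In the first and second panel MUT replicate 2 and REG replicates 1 and 2 are the highest bars.

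Of the 5 members that set REG replicates 1 and 2 farthest above REG replicate 3, 4 have short transcripts, and exon length moved with this difference over the table. Among the 4510 genes with a mean value of 10 or more, the difference between the mean of REG replicates 1 and 2 and REG replicate 3 had a median of 0.98 on the log2 scale for the 420 genes under 1500 exon bases and −0.65 for the 4090 longer ones. S100a8, S100a9, Camp and Retnlg have 694, 522, 758 and 593 exon bases, and their differences were 2.67, 2.58, 1.99 and 1.90. Hdc, with 6389 exon bases, differed by 1.87 in the same direction. Among members the 14 under 1500 bases had a median difference of −0.30 and the 18 longer ones −0.38, and Elane, Ctsg and Ly6g, with 984, 1033 and 942 bases, had −1.40, −1.06 and −0.81. The part of transcript length in the calprotectin values was not tested.

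Other genes of neutrophil biology, a list of 51 with transcription factors, adhesion molecules, chemokines, oxidase subunits and further granule proteins, gave 46 genes tested. In REG against MUT 14 of the 46 were called higher and 1 lower, beside 11.8% and 24.8% of all genes, with a median log2 change of 1.08. Total-read scaling gave 6 higher and 1 lower (median 0.28), quantile scaling 8 and 0 (0.71), and background subtraction 3 and 0 (0.36). The smallest p-values were those of Cebpb, at 2.88 ± 0.33 (adjusted p = 0.00109, limma), Mmp9, at 3.02 ± 0.38 (adjusted p = 0.00133, limma), and Cebpd, at 2.96 ± 0.41 (adjusted p = 0.00176, limma). Cebpb and Cebpd are C/EBP factors expressed in many cells, and Mmp9 is gelatinase B, made by neutrophils and in bone by osteoclasts. In MUT against WT 0 were called higher and 8 lower, beside 20.5% and 14.6% of all genes, led by the same 3 genes: Cebpb changed by −3.11 ± 0.33 (adjusted p = 0.000864, limma), Cebpd by −2.56 ± 0.41 (adjusted p = 0.00267, limma) and Mmp9 by −2.28 ± 0.38 (adjusted p = 0.00306, limma). The 1 lower gene in REG against MUT was Csf3, which encodes granulocyte colony-stimulating factor. It stood at 0.819, 0.450 and 0.428 scaled units in WT, at 0.839, 2.595 and 0.662 in MUT and at 0.149, 0.157 and 0.328 in REG. Its log2 change was −1.43 (adjusted p = 0.0297, limma). All 3 REG values lay below 0.367, the pseudocount added before taking log2. With pseudocounts 10 times higher and 10 times lower the change was −0.36 and −2.31. Among others, Csf3 was not called under quantile scaling (−0.50, adjusted p = 0.559, limma) or after background subtraction (adjusted p = 0.0599, limma). Nor was it called with the replicate block, a pseudocount 10 times higher, only the 2 groups compared, or without MUT replicate 1, 2 or 3 or REG replicate 1. In REG against WT limma called 0 of the 46. The list's median also turned with the scaling in MUT against WT, where it was −0.31 as deposited, 0.80 under total-read scaling, −0.11 under quantile scaling and 0.60 once background was subtracted. The 3 other scalings, in that order, called 3, 1 and 1 genes higher and 3, 3 and 1 lower there. The shares of all genes called in either direction in those fits were 41.5%, 17.8% and 17.5%. Cebpb was called lower in MUT against WT and higher in REG against MUT under all 4 scalings, and Mmp9 was called lower in MUT only as deposited.

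Markers of other blood and marrow cells were not even across the groups. The B cell sum spanned 70.8 to 193 RPM in WT, 1933 to 6104 RPM in MUT and 199 to 320 RPM in REG. The erythroid sum over 11 genes spanned 589 to 1778 RPM in WT, 3497 to 3561 RPM in MUT and 2306 to 4823 RPM in REG. The macrophage sum over 12 genes ran from 256 to 304, from 122 to 351 and from 403 to 553 RPM. Limma called 6 of the 11 macrophage markers tested higher in REG against MUT, beside 11.8% of all genes, and 0 of the 11 erythroid ones. In MUT against WT it called 6 of the 11 macrophage markers lower and 1 higher, and 3 of the 12 B cell markers higher, beside 14.6% of all genes lower and 20.5% higher. It called 0 of the 11 erythroid markers there, with a median log2 change of 0.16. The RPM sums are on the total-read scale, where the median change of all genes was 1.11 in MUT against WT. The T and NK cell sum over 9 genes was 15.9 to 22.9 RPM in WT, 85.9 to 118 in MUT and 26.01 to 29.7 in REG. In none of these lists was a marker at 0 reads in every library. Their part in the differences of the neutrophil genes was not tested.

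The count of members whose REG and MUT libraries did not overlap was 14 of 32, 13 higher and 1 lower in REG, while 42.5% of all genes tested had no overlap. Between MUT and WT it was 1 of 32, against 58.5% of all genes. Between REG and WT it was 10 of 32, all higher in REG, against 16.1% of all genes. These 10 were Ms4a3, Gfi1, Camp, Fcnb, Chil3, Pglyrp1, Mcemp1, S100a8, S100a9 and Anxa1.

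The authors' deposited table gives its own test. At an FDR under 0.05 it holds 12 of the 32 members in REG against MUT, all higher, among 41.5% of all its genes. Beside the 8 above these were Camp, Retnlg, S100a8 and S100a9, with log2 ratios of 2.29, 1.90, 2.34 and 2.16 in the authors' deposited table. For MUT against WT the authors' deposited table holds 1 member, Hdc, among 25.5% of all its genes. For REG against WT it holds 0 members and 0% of all its genes.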

How the data were processed

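RNA from 9 coronal suture libraries was read single-end (75 cycles, NextSeq500) by the submitters, with RNA integrity numbers above 9 per the labels. Alignment to mm10 with STAR 2.6.1d and processing in Partek are given per the submitters' processing notes; how reads were counted, and whether by strand, is not stated in the sources used. The deposited matrix holds a signal per gene and library without gene names. By its values this is an upper-quartile scaled count, each value being a read number plus 1 times a factor of the library. Its columns took their genes from the order of the authors' gene table, once 4 statistics in it were found equal to those of the matrix for all 43644 genes (relative tolerance 1e-06). That table also holds the authors' p-value and FDR and their log2 ratio per comparison, and least-squares means as signal.

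A gene's estimated reads were its value divided by the lowest one in that library, minus 1. Many were not whole, so limma 3.58.1 (R 4.3.3, lmFit and eBayes) was used on log2(value + 0.367), for genes that reached 0.367 in 3 or more libraries, with all 9 libraries in 1 fit. Fold changes on this scale understate those of low genes. p-values are two-sided and Benjamini-Hochberg adjusted over 29107 genes. Values are given with the SD (n = 3) or the SE of the fit. RPM and RPKM used estimated reads and GENCODE M21 exon lengths. An exact permutation test of 3 against 3 cannot go below the threshold and was not used.

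The 32 members, the 4 classes and all marker lists were chosen with earlier results of these data known. Each called member and the member of smallest p per class and comparison is given with its change, SE and adjusted p, and the others by values, ranges and counts; further changes were added after the values were seen. Alternatives were total-read and quantile scaling, background subtraction, 2 other pseudocounts, 2 other filters, a replicate block, limma with trend, only the 2 groups compared, each library left out, and REG replicate 3 or MUT replicate 2 alone. The procedure was tested on simulated data. Figures were drawn with matplotlib 3.10.9 in Python 3.11.15.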

Additional observations from a re-analysis of the deposited data

How the results depend on the processing

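In MUT against WT the count of called members was 1 with the values as deposited, 3 with total-read scaling, 0 with quantile scaling, 0 after background subtraction, 0 with MUT replicate 2 alone in its group, and 0 to 1 with each library left out. Of the 32 members 18, 12 and 17 changed sign there under the 3 other scalings, among them, of the changes given with an error, Elane (0.20), Fcnb (0.0640) and Cd177 (0.58) with total-read scaling, Cd177 (0.39) with quantile scaling, and Elane (0.39), Fcnb (0.0554) and Cd177 (0.74) after background subtraction. In REG against MUT the count was 8 as deposited, 2 with total-read scaling, 2 with quantile scaling, 0 after background subtraction, 5 with a pseudocount 10 times lower, 4 with only the 2 groups compared, 4 with REG replicate 3 alone, 2 with MUT replicate 2 alone, and 1 to 10 with each library left out. In REG against WT it was 0 in every alternative but 1, and 0 to 3 with each library left out. Why the counts moved was not tested. The replicate block gave 1, 9 and 0 called members in MUT against WT, REG against MUT and REG against WT; in the second Prtn3, Hp and Hdc were not called (adjusted p = 0.0526, 0.0545 and 0.0625, limma) and Camp, Retnlg, S100a8 and S100a9 were. The labels do not say which libraries, if any, are paired; the correlations of same-numbered libraries ran from −0.20 to 0.10 and the best-matching number was the library's own in 1 of 9 pairs.

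Depth limits the low members most in MUT replicate 2, with 2945636 estimated reads. There Cebpe rested on 2, Trem1 on 3, Fpr2 on 4, Serpinb1a on 5, and Fcnb and Mcemp1 on 8 estimated reads each, so changes of these genes against MUT carry a large counting error that the estimated reads cannot bound.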

Other observations

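Neighbouring members were not always alike within a library. S100a8 and S100a9, with 22595 bases between them, kept a ratio of 2.15 to 2.54 in WT and REG, and stood at 1.65, 3.34 and 1.55 in MUT replicates 1 to 3. Elane and Prtn3, with 3071 bases between them, had a ratio of 1.38 to 1.56 in WT, of 0.597 to 1.67 in MUT and of 0.812 to 2.04 in REG. In REG replicate 2, S100a9 was the highest of the 9 libraries while Olfm4 rested on 4 and Ly6g on 10 estimated reads.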
